A study of Homo sapiens with 8 samples.

Results

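Amino acid and cystine transporters were followed as 10 named genes across 8 RNA-sequencing libraries of MDA-MB-231 and HS578T, a pair of triple-negative breast cancer cell lines. The genes were SLC7A11, SLC3A2, SLC7A5, SLC7A8, SLC7A1, SLC1A4, SLC1A5, SLC1A3, SLC38A1 and SLC38A2, chosen by name, and all 10 were among the 23686 gene symbols listed for each library. The 4 groups held 2 libraries each: MDA-MB-231 cells given siGpx1 (an siRNA against GPX1, a selenium enzyme that spends glutathione to remove hydrogen peroxide), MDA-MB-231 control cells, HS578T cells given siGpx1 and HS578T control cells. The genotype tag of the siGpx1 libraries reads Gpx1-/- although their titles name an siRNA, and the labels do not say what the control cells received, how many siRNAs were used or how long after them the RNA was taken. The series title links GPX1 to metastasis, and the comparisons ask how each line differed after siGpx1.

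These proteins move amino acids across the plasma membrane. SLC7A11, known as xCT, takes up cystine in exchange for glutamate, and cystine is reduced inside the cell to cysteine for the synthesis of glutathione, the substrate of GPX1. SLC3A2, the heavy chain CD98, carries SLC7A11 and the light chains SLC7A5 and SLC7A8 to the membrane. SLC7A5 exchanges large neutral amino acids such as leucine for glutamine, SLC1A5, SLC38A1 and SLC38A2 bring in glutamine and small neutral amino acids, and SLC38A2 is known to be induced when amino acids run short. Several of these genes carry an amino acid response element, a DNA site bound by the stress factor ATF4, and SLC7A11 is also known as a target of NRF2, which binds antioxidant response elements.

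The response element sequences found in the promoters are shown first. Several of these genes were already known to carry an amino acid response element, so the shares below are a description only. RefSeq promoter windows (build GRCh38.p14, 250 bases before to 50 after a start) were at hand for 9 of the 10 genes and covered 20 starts. SLC7A11 had no window in the table. Both strands were searched for TGATGNAA, the core of the amino acid response element, which was found in 6 of the 9 genes and in 6 of their 20 windows, against 4.46% of all 27305 genes in the table and 3.62% of all 35116 windows. The 6 matches are in capitals below, each written 5′ to 3′ on the strand of its gene, and those of SLC3A2 and SLC1A4 read as the reverse complement.
SLC3A2, chr11:62881728-62881748, plus strand: aggactccTTACATCAgctcc
SLC7A1, chr13:29595666-29595689, minus strand: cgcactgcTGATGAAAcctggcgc
SLC1A3, chr5:36596360-36596383, plus strand: gaaatgacTGATGCAAagcagggt
SLC1A4, chr2:64989384-64989407, plus strand: gctcccgtTTGCATCAtctccagc
SLC1A5, chr19:46784896-46784919, minus strand: gaagtggcTGATGCAAgctgtcca
SLC38A1, chr12:46266505-46266528, minus strand: gacccgaaTGATGAAAagggatca

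The antioxidant response element core TGACNNNGC was found in 5 of the 9 genes, SLC3A2, SLC7A1, SLC7A5, SLC1A3 and SLC1A5, and in 5 of the 20 windows, against 16.06% of genes and 13.35% of windows in the table. No match of one core overlapped a match of the other in these windows. SLC38A2, the gene that rose most after siGpx1 in HS578T among the 10, had neither core in its window, and SLC7A5, the gene with the largest fall common to both lines among the 10, had only the antioxidant core, at this site.
SLC7A5, chr16:87869493-87869517, minus strand: ggggttccTGACGCAGCtgcgggcg
A match is a stretch of letters and was not tested as a binding site. Sequence outside these windows was not searched for either core, so a gene without a match could hold one elsewhere.

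A second kind of sequence was searched because earlier results of these libraries had linked it to the response to siGpx1, so the values over all genes are a description. The 1652 tested genes whose 3′ untranslated region held GGGCATC or GGCATCA but neither sequence of a second pair, ACTTCGA or TACTTCG, had a median log2 change of -0.22 in MDA-MB-231 and -0.20 in HS578T, the 244 genes with the second pair alone had 0.24 and 0.28, and the 10790 genes with none of these had 0.01 and 0.07. The 71 genes with both pairs, SLC7A11 among them, had medians of 0.02 and 0.00. A match of the first pair was found in SLC7A11 and SLC7A8, and 13.5% of searched genes hold one. A match of the second pair was found in SLC38A2, SLC1A3 and also in SLC7A11, and 2.5% of searched genes hold one. The 5 sites, with the 7 matching bases in capitals, were as follows.
SLC7A11: cagaatttcagGGGCATCgtgggtttggt
SLC7A11: cttgtactgaaTACTTCGgcaaacttatt
SLC7A8: tttaaggtagtGGGCATCtctctcctaat
SLC1A3: actgatgatagACTTCGAaaacagatgag
SLC38A2: aaataatgtggTACTTCGctcatcaggca
The other 6 genes, SLC3A2, SLC7A5, SLC7A1, SLC1A4, SLC1A5 and SLC38A1, had none. The part of these sites in the changes given below was not tested.

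The libraries held 12905808 to 14216365 estimated counts and detected 15584 to 15817 genes, and 14249 genes were tested. GPX1 stood at 108 and 95 counts in MDA-MB-231 siGpx1 libraries against 2944 and 3223 in their controls, and at 42 and 42 counts in HS578T siGpx1 libraries against 1117 and 1074, so no library went against its label. Both lines are labelled epithelial. MDA-MB-231 held EPCAM at 31.8 to 39.5 TPM (a share of all transcripts in the library, corrected for gene length), but its CDH1 did not pass 1.11 TPM, and in HS578T EPCAM and CDH1 did not pass 0.22 and 0.12 TPM. The summed level of 6 epithelial markers was 3725 to 3823 TPM in MDA-MB-231 siGpx1 libraries against 2472 to 2473 TPM in controls, and 941 to 1041 against 356 to 362 TPM in HS578T, mostly through KRT18 in HS578T. The summed level of 5 mesenchymal markers was also higher after siGpx1, at 3073 to 3106 TPM in MDA-MB-231 siGpx1 libraries against 2397 to 2447 TPM in controls, and 22943 to 25396 against 19409 to 19647 TPM in HS578T. The summed level of 6 fibroblast markers was 23.0 to 23.2 TPM in MDA-MB-231 siGpx1 libraries against 17.3 to 18.6 TPM in controls, and 5652 to 6771 against 5096 to 5101 TPM in HS578T, and the part of these shifts in the results below was not tested. Of 6 leukocyte markers, CD3E was listed at 0 in all 8 libraries and PTPRC did not pass 0.19 TPM, while CD68 stood at 61.3 to 166 TPM and CD14 at 6.23 to 12.98 TPM. The leukocyte list summed to 176 to 180 TPM in MDA-MB-231 siGpx1 libraries against 166 to 172 TPM in controls, and to 70.7 to 75.9 against 99.4 to 101 TPM in HS578T. Of 3 endothelial markers CDH5 and VWF did not pass 0.06 TPM, and PECAM1 stood at 1.37 to 1.42 TPM in MDA-MB-231 siGpx1 libraries against 2.04 to 2.09 TPM in controls, and at 5.29 to 5.34 against 2.81 to 3.40 TPM in HS578T. The part of these markers in the results was not tested either. Separate cultures are not stated for the replicates, so p-values measure a spread between libraries that could be technical only. The HS578T siGpx1 libraries differed more from each other than the pairs of the other groups did: averaged over genes, chi-square was 4.05 for them and 1.36 to 1.97 for the others.

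**Figure D1:**
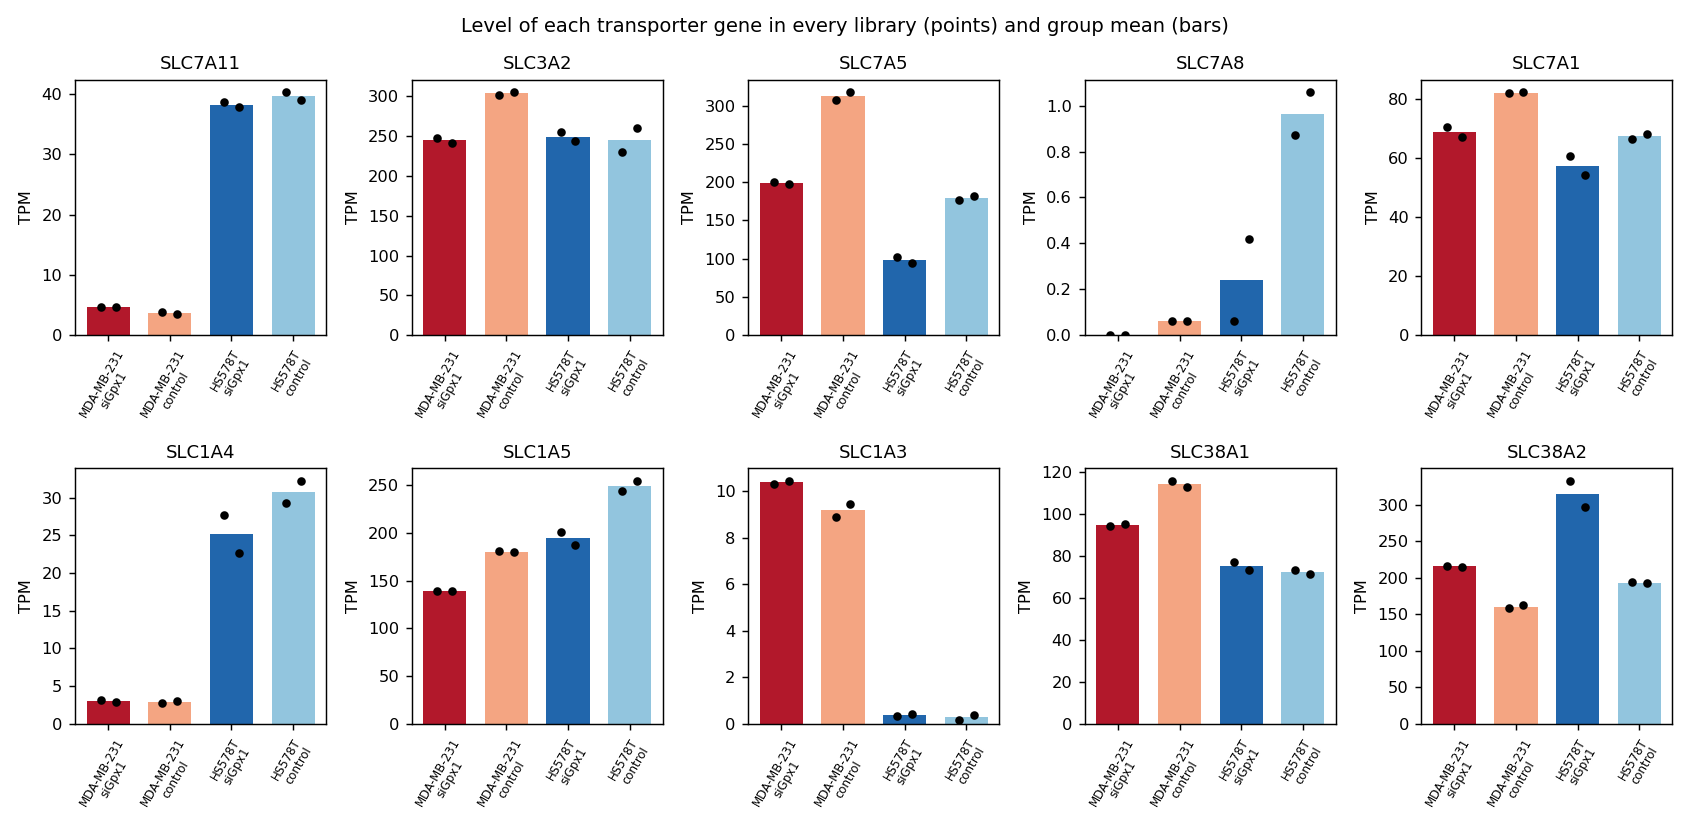
Level of each of the 10 transporter genes in TPM (y axes start at 0 and differ in scale) in the 4 groups on the x axis. Points are the 2 libraries of a group and bars their mean. SLC7A5 and SLC1A5 are lower and SLC38A2 higher in both siGpx1 groups, while SLC7A11, SLC1A4 and SLC1A3 separate the lines.

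After siGpx1 the glutamine and neutral amino acid carrier SLC38A2 rose and the leucine carrier SLC7A5 fell in both lines, and SLC1A5 and SLC7A1 fell in both by smaller amounts. In MDA-MB-231, 3 of the 10 genes rose and 5 fell at an adjusted p under 0.05, while 20.7% of all tested genes rose and 21.9% fell. In HS578T, 2 rose and 5 fell, while 28.6% of all tested genes rose and 22.1% fell. The median log2 change of the 10 genes was -0.27 in MDA-MB-231 and -0.09 in HS578T, against 0.00 and 0.04 over all tested genes. The 5 that fell in HS578T include SLC7A8, and so do both medians. SLC7A8 had passed the filter on low counts only through HS578T control cells, where it was highest, so its fall there is no support. All p-values of single genes come from the quasi-likelihood test of edgeR, adjusted by Benjamini-Hochberg over the 14249 genes, and changes are given as log2 ± SE. In bulk RNA, fewer cells of a kind and less RNA per cell cannot be told apart.

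**Figure D2:**
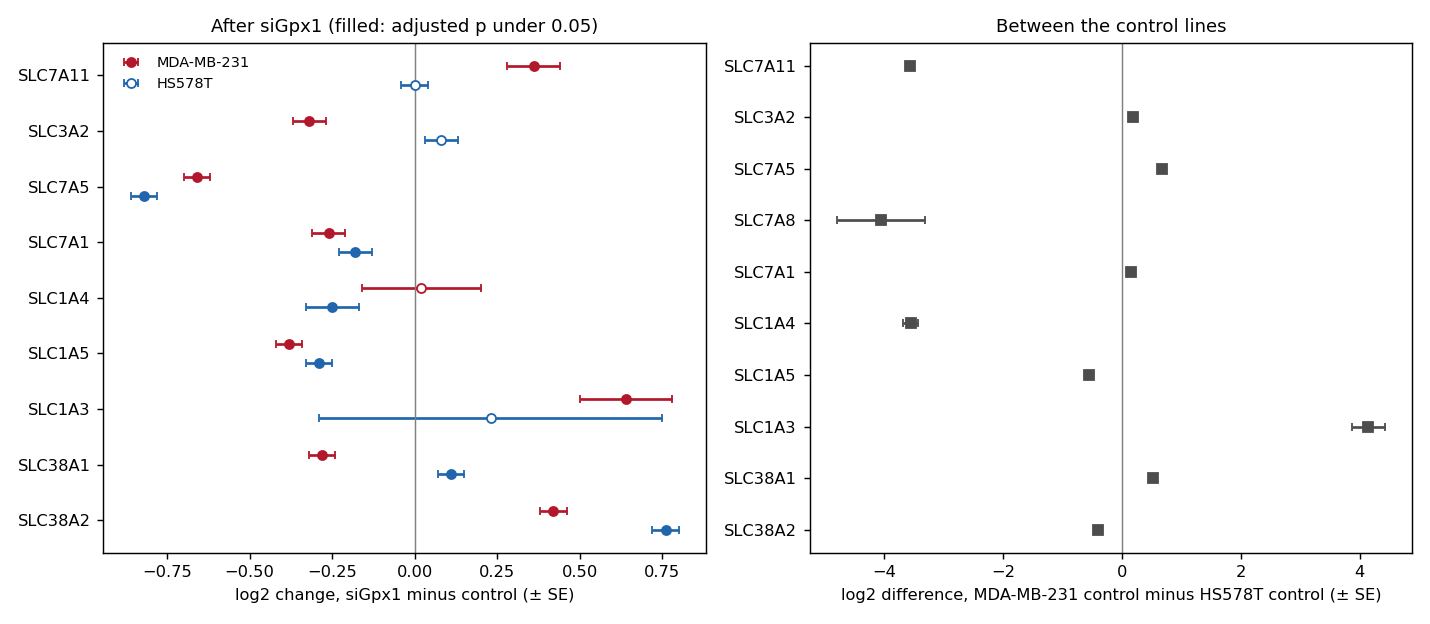
Left, log2 change after siGpx1 (siGpx1 minus control, ± SE) of 9 transporter genes in MDA-MB-231 (red, upper point) and HS578T (blue, lower point), filled where the adjusted p was under 0.05. SLC7A8 is left out of this panel because it held at most 17 counts in any library. Right, log2 difference between MDA-MB-231 control and HS578T control cells for all 10. The changes after siGpx1 lie between -0.82 and 0.76, and the differences between the lines between -4.06 and 4.15.

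SLC7A11, the cystine carrier, rose in MDA-MB-231, where its level was low, and did not pass the test in HS578T, where its level was higher. It stood at 4.73 and 4.67 TPM in MDA-MB-231 siGpx1 libraries, against 3.75 and 3.56 TPM in MDA-MB-231 controls, from 202 to 255 counts. The siGpx1 libraries lay above both controls, and the change was 0.36 ± 0.08 (adjusted p = 0.0019 by edgeR). In HS578T it stood at 38.7 and 37.8 TPM in siGpx1 libraries, against 40.3 and 38.9 TPM in controls. The TPM values did not overlap, by a gap far smaller than the distance between the lines, and the test on counts gave 0.00 ± 0.04 (adjusted p = 1 by edgeR). The effect differed between the lines by 0.35 ± 0.09 (MDA-MB-231 minus HS578T, adjusted p = 0.0136 by edgeR). The antisense gene SLC7A11-AS1 held 0 to 14 counts per library, and whether strand was used in counting is not given in the sources used here.

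SLC3A2, the heavy chain shared by SLC7A11, SLC7A5 and SLC7A8, fell in MDA-MB-231. It stood at 248 and 242 TPM in siGpx1 libraries, against 302 and 306 TPM in controls, a change of -0.32 ± 0.05 (adjusted p = 7.99e-05 by edgeR). HS578T held it at 255 and 244 TPM in siGpx1 libraries, against 230 and 260 TPM in controls, so the groups overlapped (0.08 ± 0.05, adjusted p = 0.197 by edgeR). SLC3A2 in HS578T passed in 1 of 17 other settings, that without control replicate 2, where the change was 0.17. Without control replicate 1 the change was -0.02, and DESeq2 gave 0.06 (adjusted p = 0.491). The effect of siGpx1 was lower in MDA-MB-231 than in HS578T by 0.40 ± 0.07 (difference of -0.40, adjusted p = 0.00114 by edgeR).

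SLC7A5, the leucine carrier, had the largest fall in each line among the 10 genes apart from SLC7A8, which was near the limit of detection. It stood at 200 and 197 TPM in MDA-MB-231 siGpx1 libraries, against 307 and 318 TPM in controls. Its HS578T level was 102 and 94.4 TPM in siGpx1 libraries, against 177 and 182 TPM in controls. Every siGpx1 library lay below every control of its line. The change was -0.66 ± 0.04 in MDA-MB-231 (1.58-fold lower, adjusted p = 1.39e-09) and -0.82 ± 0.04 in HS578T (1.76-fold lower, adjusted p = 1.90e-10 by edgeR), larger in size than those of 86.3% and 87.2% of tested genes. The difference between these falls was 0.16 ± 0.06 and missed the threshold (adjusted p = 0.0662 by edgeR), but it passed in 10 of 16 other settings, with DESeq2 at 0.22 and adjusted p = 0.0199. The near-identical transcript SLC7A5P2 held 3.02 to 18.1 counts per library against 2273 to 8441 for SLC7A5.

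SLC7A8, another leucine carrier of this family, was near the limit of detection. It held 0 counts in both MDA-MB-231 siGpx1 libraries and 1 in each MDA-MB-231 control, where no fold can be given. In HS578T it held 1 and 7 counts in siGpx1 libraries, against 15 and 17 in controls. The ratio of summed counts at equal depth was 0.259 (95% exact interval 0.103 to 0.575, counting error only), and the fitted change was -1.86 ± 0.56 (adjusted p = 0.0128 by edgeR). Leaving out siGpx1 replicate 1 (-1.11, adjusted p = 0.154) or control replicate 2 (-1.75, adjusted p = 0.0889 by edgeR) ended the call, and without siGpx1 replicate 2 the change was -3.73.

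The summed level of the light chain genes was below that of SLC3A2 in HS578T cells given siGpx1. Counted per length, SLC7A5, SLC7A6, SLC7A7, SLC7A8, SLC7A10 and SLC7A11 together reached 250 and 246 TPM in MDA-MB-231 siGpx1 libraries, against 345 and 355 TPM in controls, and 170 and 159 TPM in HS578T siGpx1 libraries, against 238 and 243 TPM in controls. The ratio of this sum to SLC3A2 was 1.01 and 1.02 in MDA-MB-231 siGpx1 libraries, against 1.14 and 1.16 in controls. In HS578T it was 0.666 and 0.650 in siGpx1 libraries, against 1.03 and 0.932 in controls. The ratio was lower in every siGpx1 library than in every control of the same line. These ratios were not tested.

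**Figure D3:**
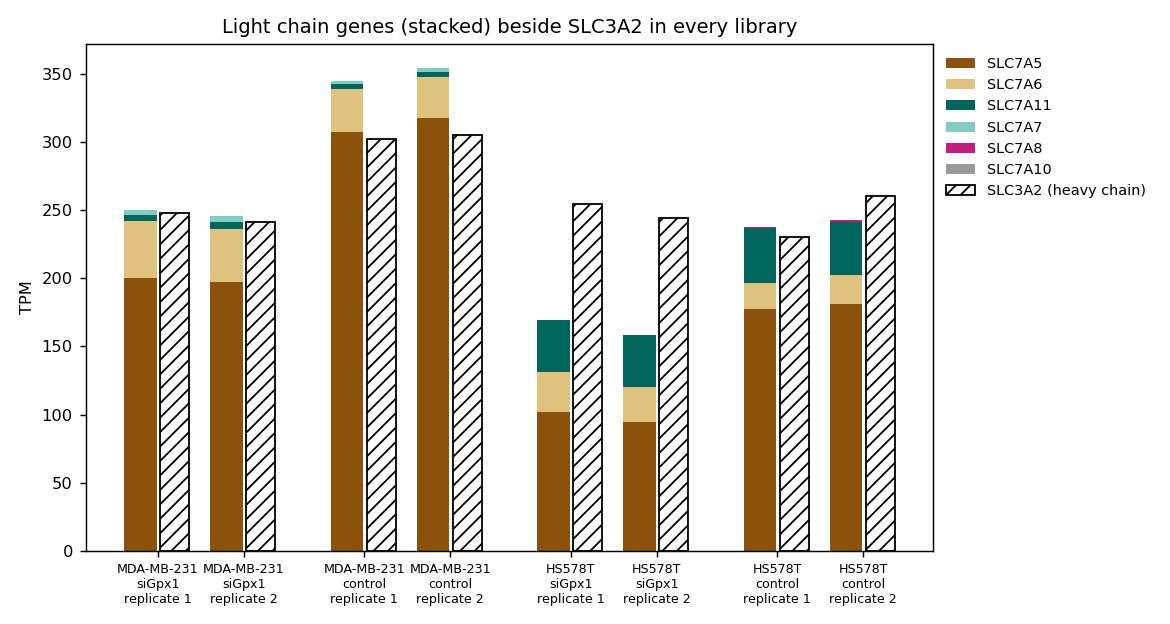
Stacked bars give the TPM of 6 light chain genes and hatched bars the TPM of their heavy chain SLC3A2 in each of the 8 libraries. SLC7A5 makes up most of each stack, and in HS578T siGpx1 libraries the stack reaches 159 to 170 TPM beside 244 to 255 TPM of SLC3A2.

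The makeup of the light chains differed by line. SLC7A11 made up 1.89 and 1.90% of their sum in MDA-MB-231 siGpx1 libraries, against 1.09 and 1.0% in controls. In HS578T it made up 22.8 and 23.8% in siGpx1 libraries, against 16.9 and 16.0% in controls. SLC7A5 made up 80.1 and 80.3% in MDA-MB-231 siGpx1 libraries, against 89.0 and 89.8% in controls, and 59.9 and 59.5% in HS578T siGpx1 libraries, against 74.5 and 74.8% in controls. The share of SLC7A11 in HS578T was therefore higher in the siGpx1 libraries although its own level was not, since SLC7A5 stood lower there. SLC7A6 also took a larger share after siGpx1, as its level was higher while the sum was lower. It stood at 41.7 and 39.3 TPM in MDA-MB-231 siGpx1 libraries, against 31.5 and 29.9 TPM in controls. In HS578T, SLC7A6 stood at 29.35 and 26.2 TPM in siGpx1 libraries, against 19.3 and 21.2 TPM in controls.

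SLC7A1, the carrier of arginine and lysine that works without SLC3A2, fell in both lines. It stood at 70.7 and 67.1 TPM in MDA-MB-231 siGpx1 libraries, against 82.1 and 82.5 TPM in controls (-0.26 ± 0.05, adjusted p = 2.02e-04 by edgeR). In HS578T it stood at 60.8 and 54.3 TPM in siGpx1 libraries, against 66.5 and 68.4 TPM in controls (-0.18 ± 0.05, adjusted p = 0.00499 by edgeR), and without siGpx1 replicate 2 the change was -0.11 (adjusted p = 0.0347 by edgeR). The groups of neither line overlapped, and the difference between the lines was -0.09 ± 0.07 (adjusted p = 0.422 by edgeR).

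SLC1A5, the main exchanger for glutamine among these genes, fell in both lines. It stood at 139 and 139 TPM in MDA-MB-231 siGpx1 libraries, against 181 and 180 TPM in controls (-0.38 ± 0.04, adjusted p = 1.80e-06 by edgeR). HS578T held it at 201 and 188 TPM in siGpx1 libraries, against 244 and 255 TPM in controls (-0.29 ± 0.04, adjusted p = 1.24e-05 by edgeR). No siGpx1 library reached a control of its line, and the difference between the lines was -0.09 ± 0.06 (adjusted p = 0.334 by edgeR).

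SLC1A4, its relative that carries serine, alanine and cysteine, stood at 3.09 and 2.83 TPM in MDA-MB-231 siGpx1 libraries, against 2.75 and 3.0 TPM in controls. These groups overlapped (0.02 ± 0.18, adjusted p = 0.97 by edgeR). Its HS578T level was 27.7 and 22.7 TPM in siGpx1 libraries, against 29.3 and 32.3 TPM in controls, a fall of 0.25 ± 0.08 on the log2 scale (change -0.25, adjusted p = 0.0152 by edgeR). The call was lost by DESeq2 (adjusted p = 0.0812), without control replicate 2 (-0.19, adjusted p = 0.174 by edgeR) and without siGpx1 replicate 2 (-0.13, adjusted p = 0.199 by edgeR), and the change was -0.40 without siGpx1 replicate 1.

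SLC1A3, a glutamate and aspartate carrier best known from astrocytes, was measured mainly in MDA-MB-231. It held 190 and 184 counts in MDA-MB-231 siGpx1 libraries, against 130 and 125 in controls, and the change in counts was 0.64 ± 0.14 (adjusted p = 0.00208 by edgeR). Per length the difference was smaller, with 10.3 and 10.5 TPM in siGpx1 libraries against 8.90 and 9.45 TPM in controls, and limma on log2(TPM + 1) gave 0.16 with adjusted p = 0.303. Its effective length, which RSEM averages over 3 transcripts by their estimated abundance, was 3274 and 3309 bases in siGpx1 libraries, against 2538 and 2238 bases in controls. In HS578T it held 4 and 9 counts in siGpx1 libraries and 4 and 8 in controls (adjusted p = 0.773 by edgeR).

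SLC38A1, a sodium-coupled carrier of glutamine, fell in MDA-MB-231. It stood at 94.4 and 95.1 TPM in siGpx1 libraries, against 116 and 113 TPM in controls (-0.28 ± 0.04, adjusted p = 9.55e-06 by edgeR). In HS578T it stood at 77.3 and 73.2 TPM in siGpx1 libraries, against 73.3 and 71.7 TPM in controls. These groups overlapped in TPM, and the rise of 0.11 ± 0.04 in counts (adjusted p = 0.0256 by edgeR) was lost in 13 of 17 other settings, with adjusted p = 0.169 by DESeq2. The effects in the lines differed by -0.39 ± 0.05 (MDA-MB-231 minus HS578T, adjusted p = 9.52e-05 by edgeR).

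SLC38A2, its neighbour on chromosome 12 with 0 protein-coding genes between them in the RefSeq table, rose in both lines. It stood at 216 and 215 TPM in MDA-MB-231 siGpx1 libraries, against 158 and 163 TPM in controls (0.42 ± 0.04, 1.33-fold, adjusted p = 1.70e-06 by edgeR). HS578T held it at 333 and 297 TPM in siGpx1 libraries, against 194 and 192 TPM in controls (0.76 ± 0.04, 1.69-fold, adjusted p = 9.56e-10 by edgeR). Both siGpx1 groups lay above their controls. The rise was smaller in MDA-MB-231 by a difference of -0.34 ± 0.06 (adjusted p = 0.00136 by edgeR), a call that was lost without MDA-MB-231 control replicate 2 (-0.21, adjusted p = 0.0701) or siGpx1 replicate 2 (-0.24, adjusted p = 0.0534 by edgeR).

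Of the 10 genes, 1 differed in effect upward (SLC7A11) and 3 downward (SLC3A2, SLC38A1 and SLC38A2) in MDA-MB-231 relative to HS578T, while 6.32% of all tested genes differed upward and 10.7% downward. Over all tested genes the median of this difference was -0.055, and 0.002 with the scaling of DESeq2 in edgeR. SLC38A2 took 21.9 and 22.1% of the summed TPM of the 10 genes in MDA-MB-231 siGpx1 libraries, against 13.6 and 13.9% in controls. In HS578T it took 30.4 and 29.3% in siGpx1 libraries, against 18.3 and 17.5% in controls. The sum itself was 987 and 973 TPM in MDA-MB-231 siGpx1 libraries, against 1162 and 1178 TPM in controls, and 1095 and 1012 TPM in HS578T siGpx1 libraries, against 1056 and 1102 TPM in controls, where the groups overlapped. The sum was thus lower in MDA-MB-231 siGpx1 libraries, and in HS578T the higher SLC38A2 stood beside the lower SLC7A5 and SLC1A5.

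Between the control cells SLC7A11, SLC1A4, SLC1A3 and the barely detected SLC7A8 each differed by more than 10-fold. All 10 genes passed, 5 higher and 5 lower in MDA-MB-231, while 43.0% of all tested genes were higher and 38.6% lower. The 5 higher genes include SLC1A3 and the 5 lower genes SLC7A8. SLC7A8 had passed the filter on low counts only through HS578T controls and SLC1A3 only through MDA-MB-231, so their calls are no support. SLC7A11 was 11.9-fold lower in MDA-MB-231, at 3.66 ± 0.134 TPM in MDA-MB-231 controls and 39.6 ± 0.997 TPM in HS578T controls (SD, n = 2 each; log2 difference -3.57 ± 0.06, adjusted p = 2.97e-17 by edgeR). SLC1A4 was 11.8-fold lower, at 2.88 ± 0.177 TPM in MDA-MB-231 controls and 30.8 ± 2.10 TPM in HS578T controls (-3.56 ± 0.12, adjusted p = 1.11e-13 by edgeR). SLC1A3 was 17.7-fold higher in counts, at 9.18 ± 0.389 TPM in MDA-MB-231 controls and 0.275 ± 0.134 TPM in HS578T controls (4.15 ± 0.28, adjusted p = 9.57e-10 by edgeR). SLC7A8 held 2 counts in both MDA-MB-231 controls together, against 32 in HS578T controls, a ratio of 0.0615 at equal depth (95% exact interval 0.00715 to 0.241, counting error only).

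The abundant carriers differed less between the control lines. In MDA-MB-231, SLC7A5 was 1.59-fold higher (0.67 ± 0.04, adjusted p = 1.45e-10) and SLC38A1 1.44-fold higher (0.53 ± 0.04, adjusted p = 1.21e-09 by edgeR). SLC1A5 was 1.48-fold lower (-0.56 ± 0.04, adjusted p = 1.52e-09) and SLC38A2 1.32-fold lower (-0.40 ± 0.04, adjusted p = 5.43e-07 by edgeR). SLC3A2 (0.18 ± 0.05, adjusted p = 0.00353) and SLC7A1 (0.15 ± 0.05, adjusted p = 0.00552 by edgeR) passed as slightly higher, but these calls were lost in 4 and 8 of 17 other settings. Among them were leaving out HS578T control replicate 1 (adjusted p = 0.139 for SLC3A2 and 0.072 for SLC7A1) and MDA-MB-231 control replicate 2 (0.121 and 0.152 by edgeR). These control libraries also serve the comparisons after siGpx1.

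By level per length, SLC7A5 led in MDA-MB-231 controls at 313 ± 7.69 TPM, ahead of SLC3A2 at 304 ± 2.52 TPM, while in MDA-MB-231 siGpx1 libraries SLC3A2 led at 245 ± 4.6 TPM, ahead of SLC38A2 at 215 ± 1.0 TPM (SD, n = 2 each). In HS578T siGpx1 libraries SLC38A2 led at 315 ± 25.4 TPM, ahead of SLC3A2 at 249.5 ± 7.52 TPM, and in HS578T controls SLC1A5 led at 250 ± 7.44 TPM, with SLC3A2 overlapping it at 245 ± 21.2 TPM (SD, n = 2 each). Apart from that pair and the low SLC1A3 and SLC7A8 in HS578T siGpx1 libraries, no neighbours in the order of levels overlapped within a group.

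The genes whose pattern over the 8 libraries was nearest to that of SLC7A11, among 8138 genes with a mean of at least 20 CPM (counts scaled to library size), were RCN3, TLR4 and MCC. Their root mean square difference from SLC7A11 in centred log2 CPM was 0.107, 0.118 and 0.127. RCN3 stood at 5.94 and 5.65 TPM in MDA-MB-231 siGpx1 libraries against 5.22 and 4.70 TPM in controls, and at 56.9 and 50.1 TPM in HS578T siGpx1 libraries against 47.4 and 52.9 TPM in controls. TLR4 stood at 68.3 and 60.8 TPM in HS578T siGpx1 libraries against 73.6 and 73.8 TPM in controls. MCC stood at 29.6 and 27.7 TPM there against 36.4 and 33.9 TPM, so both were lower without overlap. In MDA-MB-231 both were higher, TLR4 at 8.02 and 8.98 against 7.74 and 7.42 TPM and MCC at 3.94 and 4.13 against 3.79 and 3.30 TPM. For these genes, as for SLC7A11, the difference between the lines was far larger than that after siGpx1.

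Among the genes listed as other amino acid transporters of the plasma membrane, SLC43A2 rose and SLC6A9 fell in both lines. The place of these proteins in the cell was not tested. Of 34 listed genes 19 were tested, of which 4 rose and 7 fell in MDA-MB-231 and 3 rose and 8 fell in HS578T, with a median log2 change of -0.15 and -0.23, against 0.00 and 0.04 over all tested genes. Over all tested genes 20.7% rose and 21.9% fell in MDA-MB-231, and 28.6% rose and 22.1% fell in HS578T. SLC43A2, a carrier of leucine and other large neutral amino acids that needs no heavy chain, stood at 9.37 and 10.5 TPM in MDA-MB-231 siGpx1 libraries, against 5.07 and 4.48 TPM in controls (1.05 ± 0.13, adjusted p = 9.82e-06 by edgeR). Its HS578T level was 17.9 and 19.8 TPM in siGpx1 libraries, against 6.48 and 5.83 TPM in controls (1.66 ± 0.11, adjusted p = 7.48e-09 by edgeR). SLC43A2 thus moved opposite to SLC7A5, which carries overlapping substrates, in both lines.

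The glycine transporter SLC6A9 fell by 1.35 ± 0.12 in MDA-MB-231 and by 0.63 ± 0.07 in HS578T on the log2 scale. The taurine transporter SLC6A6 rose by 0.24 ± 0.04 in MDA-MB-231 and by 1.06 ± 0.04 in HS578T, to 251 and 231 TPM in HS578T siGpx1 libraries against 122 and 116 TPM in controls. SLC7A2, the arginine carrier related to SLC7A1, fell in both lines (-0.28 ± 0.10 and -0.70 ± 0.07), as did SLC38A6 (-0.37 ± 0.14 and -0.75 ± 0.14). SLC38A7 fell in MDA-MB-231 (-0.89 ± 0.11) and its HS578T value was 0.19 ± 0.13. SLC43A3, a purine nucleobase carrier despite its family name, fell in MDA-MB-231 (-0.78 ± 0.04), where it stood at 268 and 256 TPM in siGpx1 libraries against 447 and 449 TPM in controls, and it did not pass 2.32 TPM in HS578T. SLC1A7, a glutamate carrier, fell in HS578T (-1.56 ± 0.22) and did not pass 0.41 TPM in MDA-MB-231. By edgeR the highest adjusted p among the changes called a rise or fall in these sentences was 0.0443, that of SLC38A6 in MDA-MB-231.

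Of 11 listed lysosomal carriers 8 were tested, of which 1 rose and 4 fell in MDA-MB-231 (20.7% and 21.9% of all tested genes) and 3 rose and 4 fell in HS578T (28.6% and 22.1%). SLC38A9, which senses arginine at the lysosome for the growth kinase mTORC1, stood at 11.1 and 9.88 TPM in MDA-MB-231 siGpx1 libraries, against 32.1 and 33.9 TPM in controls (-1.66 ± 0.10, adjusted p = 1.84e-09 by edgeR). In HS578T it stood at 8.23 and 6.53 TPM in siGpx1 libraries, against 18.4 and 18.6 TPM in controls (-1.27 ± 0.12, adjusted p = 2.07e-07 by edgeR). SLC36A1, an exporter of small amino acids from the lysosome, fell in both lines (-0.75 ± 0.09 and -0.73 ± 0.10), and so did SLC15A4, which exports histidine and peptides (-0.77 ± 0.08 and -0.67 ± 0.11). The 3′ untranslated regions of SLC38A9, SLC36A1 and SLC38A7 hold a match of the first pair of 7-base sequences above, and that of SLC15A4 holds none. SLC15A3, a relative of SLC15A4, fell in HS578T (-0.77 ± 0.13) and stood at 0.09 ± 0.12 in MDA-MB-231, and SLC29A3, which carries nucleosides and not amino acids, rose in both (1.03 ± 0.14 and 0.59 ± 0.20).

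**Figure D4:**
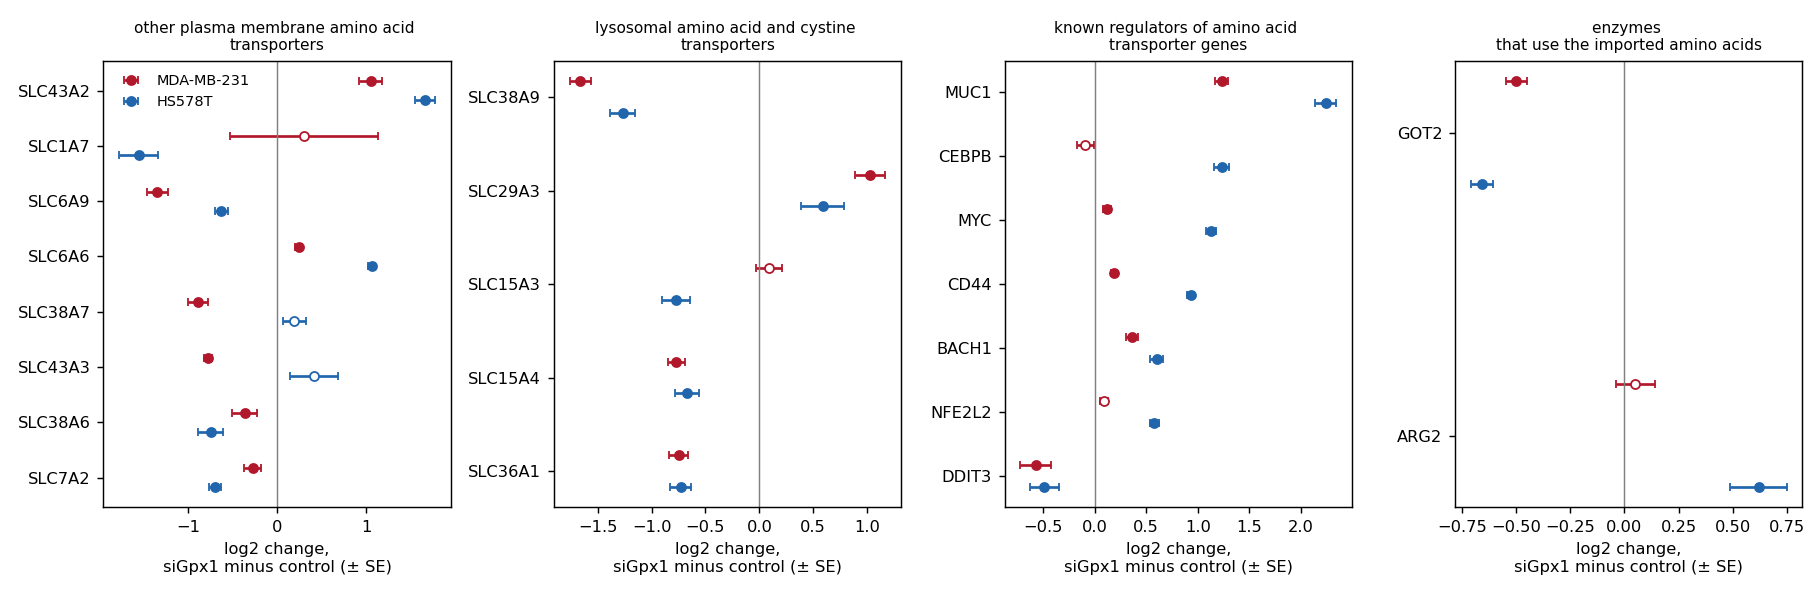
Log2 change after siGpx1 (siGpx1 minus control, ± SE) of genes named from 4 lists, in MDA-MB-231 (red, upper point) and HS578T (blue, lower point), filled where the adjusted p was under 0.05. SLC43A2 and MUC1 lie to the right of 1 in both lines, SLC38A9 to the left of -1 in both, and MYC, CD44 and CEBPB near 0 in MDA-MB-231 and near 1 in HS578T.

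Among genes known to regulate these transporters, the effect of siGpx1 differed between the lines in 8. Of 20 listed and tested, 7 rose and 2 fell in MDA-MB-231 (20.7% and 21.9% of all tested genes) and 11 rose and 2 fell in HS578T (28.6% and 22.1%). In 8 of them the effect was lower in MDA-MB-231 than in HS578T and in 0 higher, by edgeR's test of the difference, while 10.7% and 6.32% of all tested genes differed so. The median difference was -0.15 for the 20 genes and -0.055 over all tested genes, and the latter was 0.002 with the scaling of DESeq2 in edgeR. CD44, whose splice variant form is known to hold SLC7A11 at the membrane, rose by 0.19 ± 0.03 in MDA-MB-231 and by 0.93 ± 0.03 in HS578T, to 1093 and 1119 TPM in HS578T siGpx1 libraries against 612 and 598 TPM in controls. The mucin MUC1 rose in both (1.23 ± 0.06 and 2.24 ± 0.10). NFE2L2, which encodes NRF2, rose in HS578T (0.58 ± 0.04, adjusted p = 6.41e-09) and stood at 0.09 ± 0.04 in MDA-MB-231 (adjusted p = 0.0572 by edgeR), and BACH1, a repressor at the same DNA elements, rose in both (0.36 ± 0.06 and 0.60 ± 0.06).

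MYC rose by 0.12 ± 0.04 in MDA-MB-231 and by 1.13 ± 0.05 in HS578T, and CEBPB, a partner of ATF4, rose in HS578T (1.23 ± 0.07) and stood at -0.09 ± 0.08 in MDA-MB-231. DDIT3, a stress factor induced by ATF4, was lower in both (-0.57 ± 0.15 and -0.49 ± 0.14), with MDA-MB-231 controls at 39.5 and 28.4 TPM. Of 16 listed enzymes that use the imported amino acids 15 were tested, of which 3 rose and 3 fell in MDA-MB-231, near the 20.7% and 21.9% of all tested genes, and 4 rose and 5 fell in HS578T, beside 28.6% and 22.1%, with median log2 changes of 0.00 and -0.07. The aspartate aminotransferase GOT2 fell in both (-0.50 ± 0.05 and -0.66 ± 0.05), and the arginase ARG2 rose in HS578T (0.62 ± 0.13) and stood at 0.05 ± 0.09 in MDA-MB-231. By edgeR the highest adjusted p among the called changes of these regulators and enzymes was 0.0253, that of MYC in MDA-MB-231.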

How the data were processed

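Total RNA of 8 libraries was sequenced, and 1 gene table per library was deposited. The submitters' processing notes name FastQC, RSEM 1.2.12 and build hg19; aligner and annotation are not given there. As deposited, the expected counts are RSEM's estimates of reads per gene, of which 94.7 to 94.9% of those above 0 were whole numbers (to within 1e-06), and all were rounded. The TPM values, as deposited, are those estimates per effective length at a fixed total. Genes were kept by edgeR's filterByExpr, scaled by TMM and fitted with a mean per group (edgeR 4.0.16, R 4.3.3, 4 residual degrees of freedom). Calls are at a Benjamini-Hochberg adjusted p under 0.05 over all tested genes. The SE is the absolute change over the square root of F. The procedure was also run on simulated counts with the same spread setting for all genes and groups. That run is not used as support, since the HS578T siGpx1 libraries differed more from each other than the other pairs did. The members and lists were chosen with earlier results of these data known. From each list at most 8 genes were named, by size, among those that passed with at least 5 CPM and a log2 change of at least 0.5 in a line. 1 gene so named is not reported here. The 3′ untranslated regions are the longest of GENCODE 29 transcripts joined by accession, and 12758 tested genes (89.5%) had one of at least 30 bases. The alternatives used DESeq2 1.42.0 and limma 3.58.1 (the TPM fit kept genes at 1 TPM or more in 2 libraries), a filter at 5 CPM in 2 libraries, and a fold of 1.2. Figures used matplotlib 3.10.9.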

Additional observations from a re-analysis of the deposited data

Results flagged for a closer look

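The effect of siGpx1 differed between the lines, by the test of the difference itself, for 4 of the 10 transporter genes. As the log2 effect in MDA-MB-231 minus that in HS578T, it was 0.35 for SLC7A11, -0.40 for SLC3A2, -0.39 for SLC38A1 and -0.34 for SLC38A2 (adjusted p = 0.0136, 0.00114, 9.52e-05 and 0.00136 by the quasi-likelihood test of edgeR, Benjamini-Hochberg adjusted). Against a fold of 1.2 (edgeR's glmTreat), 0 of the 4 passed. SLC38A2 also missed the threshold without MDA-MB-231 control replicate 2 (-0.21, adjusted p = 0.0701) or siGpx1 replicate 2 (-0.24, adjusted p = 0.0534 by edgeR).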

How the results depend on the processing

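The labels do not say that replicate numbers pair the libraries. The deviations of same-numbered libraries from their group means correlated at 0.058 in MDA-MB-231, -0.068 in HS578T, 0.131 between the siGpx1 groups of the lines and 0.103 between their controls, over 11294 genes, and the numbers were not taken as pairs. With the replicate number as a block within each line, the counts of members called were unchanged, at 8 in MDA-MB-231, 7 in HS578T, 4 for the difference between the lines and 10 between the controls. SLC7A8 is among the 7 and the 10, and SLC1A3 among the 10. Both passed the filter on low counts only through groups where they were high, so these calls are no support. Against a fold of 1.2 the counts were 4, 3 and 0 in the first 3 comparisons. In HS578T, 4 members passed by DESeq2, which gave SLC7A8 no adjusted p, and 4 with limma on log2(TPM + 1). Leaving out a library gave 8 in MDA-MB-231, 5 to 6 in HS578T, 4 to 5 for the difference (not always the same genes) and 8 to 10 between the controls. Of 657 single-gene values under the alternatives, 587 stayed on their side of the threshold without a change of sign. Of the others, 45 lost a call, 11 gained one and 14 changed sign, none of which passed before or after. A change that rounded to 0, as for SLC7A11 in HS578T, was given no sign and so could not count as changed. Leaving out a library, the sign changed for SLC1A4 in MDA-MB-231 (-0.03 to 0.15) and, in HS578T, for SLC3A2 (-0.02 to 0.17) and SLC1A3 (-0.44 to 0.82, with -0.22 without control replicate 1). For the difference between the lines the ranges were -0.14 to 0.05 for SLC7A1, -0.11 to 0.02 for SLC1A5, -1.94 to 0.68 for SLC7A8 and -0.17 to 1.08 for SLC1A3. With the stricter filter that difference was 0.02 for SLC7A1 and SLC1A5, and by limma-voom 0.67 for SLC7A8. SLC7A11 in HS578T ran from -0.05 to 0.02. SLC7A5 and SLC38A2 in both lines and SLC1A5 in MDA-MB-231 kept their calls under every alternative run. With TPM the median of all genes between the controls was 0.18 in place of 0.05. The causes were not tested. Depth limits SLC7A8 in all groups and SLC1A3 in HS578T.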
